A study of Homo sapiens with 12 samples.

Results

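The genes described are the metalloproteases of the MMP, ADAM and ADAMTS families and their TIMP inhibitors: protein-coding genes named MMP, ADAM, ADAMTS or TIMP plus a number, leaving out MMP11 and TIMP3. They numbered 63 of the 58302 genes in the count table (19817 of these protein-coding), with 21 MMP, 20 ADAM, 19 ADAMTS and 3 TIMP genes. Members were matched by name, but the families were chosen with earlier results of these data known. RNA-seq was done on cultured human pleural mesothelioma cells of the line NCI-H226, which has lost NF2 and is sensitive to inhibitors of the TEAD transcription factors, and on its derivative NCI-H226_CL3, selected for resistance by growth in TEAD inhibitor raised from 0.25 to 3 µM. The 4 groups were resistant cells with GNE-7883 (a TEAD inhibitor), resistant cells with DMSO (the vehicle), sensitive cells with GNE-7883 and sensitive cells with DMSO, each with 3 libraries. All 4 groups share the NF2-null background. Neither the dose nor the duration of the last incubation is stated in the labels. Resistance is represented by a single derived line. Since separate cultures are not recorded for the libraries of a group, the p-values reflect spread among these libraries, which may be technical.

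MMPs are zinc-dependent endopeptidases, secreted or anchored in the membrane, which are made as inactive proenzymes and cleave collagens and other matrix proteins. ADAMs are membrane proteins, and the active ones release the outer domains of growth factors, cytokines and receptors from the cell surface. Some ADAMs lack the zinc-binding active site and act in adhesion. ADAMTS enzymes are secreted, bind the matrix through thrombospondin repeats, and include proteoglycan-cleaving enzymes and enzymes that trim procollagen. TIMPs block the active site of MMPs and of only some ADAM and ADAMTS enzymes, and TIMP2 together with MMP14 also activates the MMP2 proenzyme. TEAD factors bind DNA with the coactivators YAP and TAZ, which loss of NF2 releases from inhibition.

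Total counts ran between 31878934 and 46962645 per library, so 3 counts, used below as the detection floor, correspond to 0.0627 to 0.0920 CPM (counts scaled to a common library size, by the TMM method). Sensitive DMSO replicate 2 stood apart from the other libraries of its group: over genes, the chi-square per degree of freedom was 39.4 and 45.5 against them and 3.33 between them, and 3.51 to 11.3 within the other groups. All 12 markers of mesothelial cells reached 1 CPM in a group, but HP and PRG4 were at 0.0174 to 0.332 CPM in the resistant groups. All 12 together summed to 6168 to 6739 CPM in resistant cells with GNE-7883, 5071 to 5729 CPM with DMSO, 9295 to 9693 CPM in sensitive cells with GNE-7883 and 9815 to 11730 CPM with DMSO. In sensitive cells KRT7 averaged 2818 CPM with GNE-7883, against 4205 CPM with DMSO, and UPK1B, KRT5 and KRT19 were also lower. CALB2 (1672 against 1125 CPM), HP (81.02 against 2.07 CPM), PRG4, LRRN4, UPK3B, MSLN, PDPN and BNC1 averaged higher with GNE-7883 there. Of 12 markers of lung and airway epithelium, the tissue named in the labels, only SFTPD and AGER reached 1 CPM. The summed alveolar and airway list was 755 to 783 CPM in sensitive cells with GNE-7883, against 90.6 to 113 CPM in sensitive cells with DMSO. It was 3.84 to 4.52 CPM in resistant cells with GNE-7883 and 2.98 to 4.05 CPM in resistant cells with DMSO. In sensitive cells SFTPD made up most of the sum, averaging 762.8 CPM with GNE-7883, against 98.3 CPM with DMSO, and AGER averaged 3.099 against 3.246 CPM. Fibroblast markers summed to 469 to 541 CPM in resistant cells with GNE-7883, against 352 to 445 CPM with DMSO, and to 430 to 494 CPM in sensitive cells with GNE-7883, against 652 to 721 CPM with DMSO. COL1A1 made up most of this sum, while PDGFRA averaged 16.65 CPM in sensitive cells with GNE-7883, against 1.91 CPM with DMSO, DCN 1.32 against 0.426 CPM and COL3A1 6.23 against 5.08 CPM. Endothelial markers, of which KDR and VWF reached 1 CPM and EMCN had 0 counts, summed to 180.3 to 196 CPM in sensitive cells with GNE-7883, against 49.4 to 63.8 CPM with DMSO. In resistant cells they summed to 32.2 to 35.3 CPM with GNE-7883, against 22.8 to 24.2 CPM with DMSO. KDR made up most of each sum, averaging 185.2 CPM in sensitive cells with GNE-7883, against 54.49 CPM with DMSO. VWF averaged 2.176 against 3.512 CPM there. Mitochondrial transcripts made up 0.954 to 1.09% of counts in sensitive cells with GNE-7883, against 0.522 to 0.622% with DMSO, and 0.614 to 0.693% in resistant cells with GNE-7883, against 0.561 to 0.685% with DMSO. Whether these differences contribute to the results below was not tested. In RNA from whole cultures, fewer cells of a type and less RNA per cell cannot be told apart.

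By the authors' RPKM values (reads scaled by transcript length and by library size), 29 of the 63 genes reached a group mean of 1 RPKM in at least 1 group, which is called expressed here: 9 of 21 MMP, 7 of 20 ADAM, 11 of 19 ADAMTS and 2 of 3 TIMP genes. Within single groups, 26 were expressed in resistant cells with GNE-7883, 25 in resistant cells with DMSO, 25 in sensitive cells with GNE-7883 and 22 in sensitive cells with DMSO. The genes nearest the threshold were ADAM11, whose highest group mean was just under 1 RPKM, and ADAMTS9 with 1.12 RPKM. Of all 63 genes, 42 passed the filter on low counts and were tested. The other 21 had at most 71 counts in all 12 libraries together, and ADAM2, ADAMTS19, MMP26 and MMP27 had none. That untested group included the interstitial collagenases MMP8 and MMP13 with 17 and 14 counts, the macrophage elastase MMP12 with 1, matrilysin MMP7 with 3, and the aggrecanase ADAMTS4 with 34 counts.

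**Figure D1:**
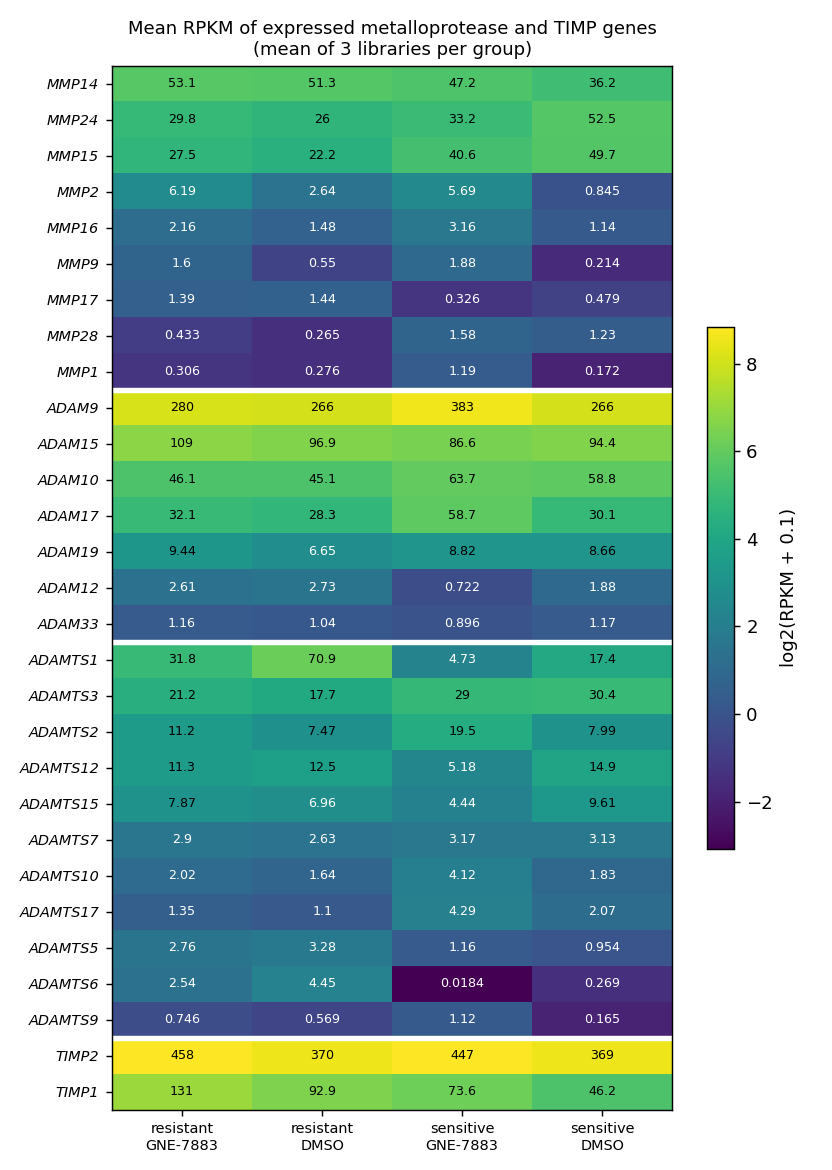
Group mean RPKM (3 libraries per group) of the expressed metalloprotease and TIMP genes on a log scale, by family and group. TIMP2 and ADAM9 have the highest levels in all 4 groups, and ADAMTS6 spans the widest range.

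A few genes held most of the transcript level in each family. TIMP2 had the highest level, at 458 ± 2.85 RPKM in resistant cells with GNE-7883, 370.3 ± 3.56 RPKM with DMSO, 447 ± 10.4 RPKM in sensitive cells with GNE-7883 and 369 ± 9.96 RPKM with DMSO (SD, n = 3 each). ADAM9, a shedding enzyme of the cell surface, followed with 279.8 ± 12.9, 266 ± 9.14, 383 ± 5.01 and 266 ± 25.6 RPKM in the same order of groups. It made up 58.1% of the summed ADAM level in resistant cells with GNE-7883, 59.3% with DMSO, 63.4% in sensitive cells with GNE-7883 and 57.5% with DMSO. Among MMPs, MMP14, the membrane-type enzyme that activates MMP2, led in resistant cells with 42.95% of the MMP sum with GNE-7883 and 47.7% with DMSO. MMP14 also led in sensitive cells with GNE-7883, with 34.8%, while in sensitive cells with DMSO the leading MMP was MMP24, another membrane-type enzyme, with 36.5%. The leading ADAMTS gene differed between the lines. ADAMTS1 held 32.9% of the ADAMTS sum in resistant cells with GNE-7883 and 54.4% with DMSO, whereas the procollagen-trimming ADAMTS3 held 37.1% in sensitive cells with GNE-7883 and 33.8% with DMSO.

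**Figure D2:**
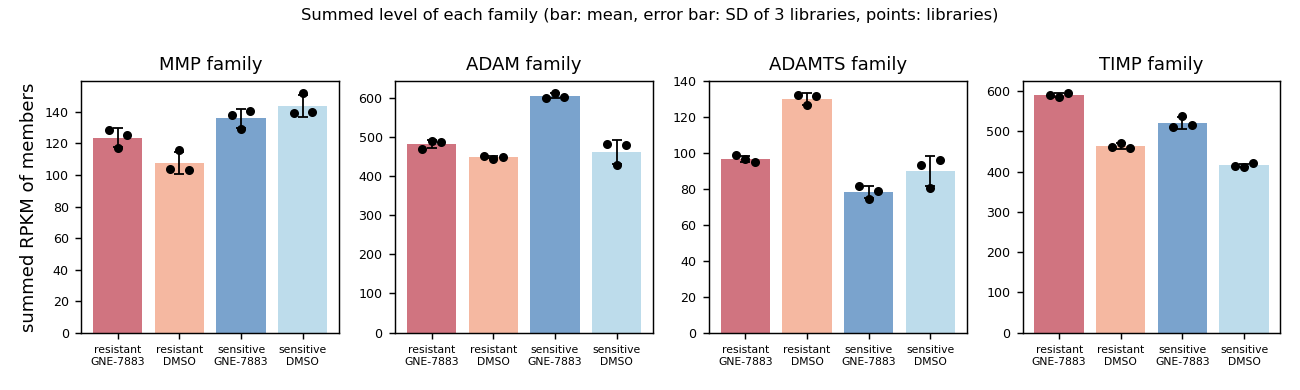
Summed RPKM of each family, with points for libraries and the group mean marked. The TIMP sum was 590.0 ± 5.13 and 464 ± 6.56 RPKM in resistant cells with GNE-7883 and with DMSO, and 521 ± 15.2 and 416 ± 4.41 RPKM in sensitive cells with GNE-7883 and with DMSO (SD, n = 3 each).

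The ADAM sum was 482 ± 10.9 RPKM in resistant cells with GNE-7883, against 448 ± 3.57 RPKM with DMSO, and 605 ± 6.52 RPKM in sensitive cells with GNE-7883, against 463 ± 30.7 RPKM with DMSO. For ADAMTS genes the sum was 96.9 ± 1.71 RPKM in resistant cells with GNE-7883, against 130.3 ± 3.21 RPKM with DMSO, and 78.3 ± 3.38 RPKM in sensitive cells with GNE-7883, against 90.1 ± 8.44 RPKM with DMSO. MMP genes summed to 124 ± 6.102 RPKM in resistant cells with GNE-7883, against 108 ± 7.27 RPKM with DMSO, and to 136 ± 5.92 RPKM in sensitive cells with GNE-7883, against 144 ± 7.09 RPKM with DMSO. The TIMP and ADAM sums of all libraries with GNE-7883 lay above those with DMSO in both lines. The MMP sum did so in resistant cells, and the ADAMTS sum lay below, while in sensitive cells the MMP and ADAMTS sums overlapped. Sums are a description and were not tested.

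More of these genes were called with GNE-7883 in the sensitive line. In sensitive cells 17 genes rose and 10 fell of the 42 tested (64.3%, edgeR quasi-likelihood test, Benjamini-Hochberg adjusted p under 0.05), against 58.1% of all 18035 genes (29.8% rose and 28.4% fell). In resistant cells 9 rose and 3 fell (28.6%), against 9.22% of all genes (5.25% rose and 3.97% fell). Without sensitive DMSO replicate 2, which enters the shared estimate of the spread, 15 rose and 5 fell in resistant cells, with 16.7% of all genes called. The 8 calls gained were those of ADAM15, ADAM17, ADAMTS3, ADAMTS15, ADAMTS17 and MMP24, higher, and of ADAMTS5 and ADAMTS12, lower. In sensitive cells the same fit gained calls for ADAMTS3, MMP10 and MMP28 and lost that of ADAMTS8. Changes of at least 1 on the log2 scale were called for 15 genes in sensitive cells (35.7%, against 14.6% of all genes) and for 3 in resistant cells, against 0.693% of all genes. The median log2 fold change over the 42 genes was 0.25 in sensitive and 0.16 in resistant cells, while over all genes it was 0.02 in sensitive cells and close to 0 in resistant cells. Log2 fold changes below are given with their standard error after ±. By family, 5 MMP genes rose and 3 fell in sensitive cells, 4 ADAM genes rose and 2 fell, 5 ADAMTS genes rose and 5 fell, and all 3 TIMP genes rose. In resistant cells 4 MMP genes rose and 1 fell, 1 ADAM gene rose, 2 ADAMTS genes rose and 2 fell, and 2 TIMP genes rose. The MMP gene that fell was MMP19, a call lost in 9 of 18 alternatives.

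The lines differed in most of these genes under either condition. In DMSO, 15 genes were higher and 15 lower in resistant than in sensitive cells (71.4%, against 48.7% of all genes, 24.2% higher and 24.4% lower). In GNE-7883, 12 were higher and 19 lower (73.8%, against 61.9% of all genes, 30.7% higher and 31.1% lower). Differences of at least 1 on the log2 scale were called for 17 genes in DMSO, against 11.8% of all genes, and for 13 in GNE-7883, against 19.9%. The response itself, tested as the difference of the GNE-7883 effects (resistant minus sensitive), differed for 25 of the 42 genes (59.5%, against 35.7% of all genes), 11 with a positive and 14 with a negative difference (19% and 16.7% of all genes). It was at least 1 on the log2 scale for 9 genes, against 8.28% of all genes. Without sensitive DMSO replicate 2, calls between lines in DMSO were gained for ADAM9, ADAM17, MMP1 and TIMP2 and lost for ADAMTS7 and MMP3, and that of MMP9 was gained in GNE-7883. The difference of responses was then also called for ADAMTS3, MMP10 and TIMP1, and no longer for MMP19.

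With GNE-7883, 10 genes were called in both lines, of which 9 moved the same way: MMP2, MMP9, MMP16, ADAMTS2, ADAMTS9, TIMP1 and TIMP2 rose, and ADAMTS1 and ADAMTS6 fell. MMP15 fell in sensitive and rose in resistant cells. These 10 are 23.81% of the genes tested, while 1514 genes, 8.39% of all tested, were called in both lines, 93.5% of them the same way. The 2 comparisons share no library.

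**Figure D3:**
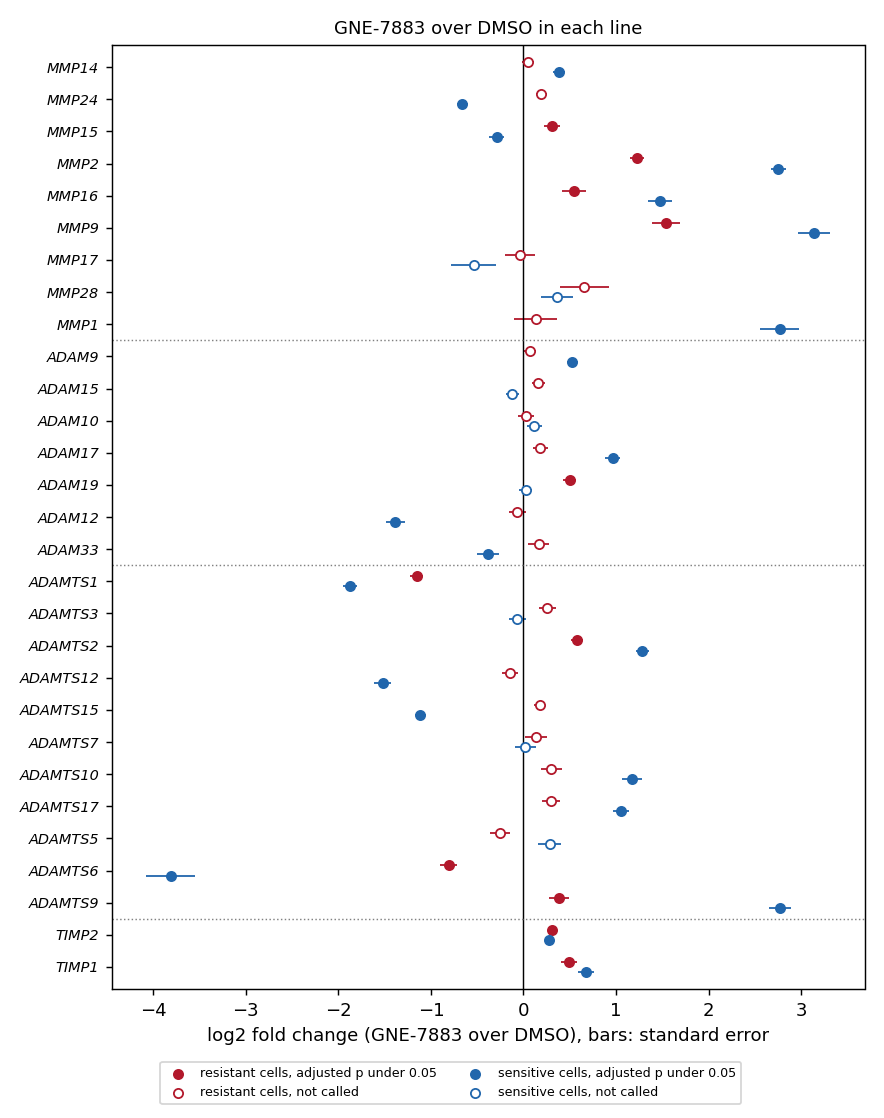
Log2 fold change with GNE-7883 over DMSO for each expressed gene in resistant and in sensitive cells, with bars of 1 standard error; filled points have an adjusted p under 0.05. MMP9, MMP2, MMP1 and ADAMTS9 lie farthest to the right in sensitive cells, and ADAMTS6 lies farthest to the left at -3.81.

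The gelatinases, MMP2 and MMP9, which degrade denatured and basement-membrane collagen, rose with GNE-7883 in both lines. MMP2 (ENSG00000087245, GRCh38 chr16:55389700-55506691, plus strand) had 28.9, 28.05 and 28.7 CPM in resistant cells with GNE-7883, against 12.1, 12.2 and 12.2 CPM with DMSO. Sensitive cells had 27.5, 28.8 and 26.7 CPM with GNE-7883, against 3.58, 4.23 and 4.52 CPM with DMSO. All libraries with GNE-7883 lay near a common level in both lines, and no library with DMSO overlapped them. The change was 2.75 ± 0.081 on the log2 scale (adjusted p = 3.8e-13, edgeR) in sensitive cells and 1.23 ± 0.072 on the log2 scale (adjusted p = 5.9e-08, edgeR) in resistant cells. In DMSO, MMP2 was already higher in resistant cells, by 1.57 ± 0.083 on the log2 scale (adjusted p = 2.52e-10, edgeR), while in GNE-7883 the difference between lines was 0.05 ± 0.069 on the log2 scale (adjusted p = 0.591, edgeR). The response was smaller in resistant cells, with a difference of -1.53 ± 0.11 (adjusted p = 3.93e-08, edgeR).

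MMP9 (ENSG00000100985, GRCh38 chr20:46008908-46016561, plus strand) was less abundant per length, at up to 1.88 RPKM, against 6.19 RPKM for MMP2. It had 3.803, 3.24 and 3.903 CPM in resistant cells with GNE-7883, against 1.19, 1.28 and 1.29 CPM with DMSO. Sensitive cells had 4.48, 4.44 and 4.59 CPM with GNE-7883, against 0.322, 0.666 and 0.547 CPM with DMSO. The groups with and without inhibitor did not overlap in either line, and the DMSO libraries of the sensitive line were the lowest. The rise was 3.14 ± 0.18 on the log2 scale (adjusted p = 4.86e-10, edgeR) in sensitive cells and 1.54 ± 0.15 on the log2 scale (adjusted p = 1.02e-05, edgeR) in resistant cells, a difference of -1.60 ± 0.25 between lines (adjusted p = 0.000117, edgeR). The line difference was 1.29 ± 0.21 on the log2 scale (adjusted p = 9.55e-05, edgeR) in DMSO. White blood cells also make MMP9, and of 10 blood cell markers 1 reached 1 CPM (CD14), with CD3E, CD68 and MPO at 0 counts. Their sum was 6.26 to 7.06 CPM in sensitive cells with GNE-7883, against 2.27 to 3.09 CPM with DMSO, 0.464 to 0.919 CPM in resistant cells with GNE-7883 and 0.346 to 0.859 CPM with DMSO. In sensitive cells CD14 made up most of this sum, averaging 5.531 CPM with GNE-7883, against 1.822 CPM with DMSO. The samples were cultured mesothelioma cells of NCI-H226 and its derivative, not tissue. PTPRC, another of the blood cell markers, averaged at most 0.068 CPM in a group. The part of white blood cells in the result was not tested.

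Membrane-type MMPs sit on the cell surface, most through a transmembrane segment and MMP17 and MMP25 through a lipid anchor. MMP14 had 203, 179 and 197 CPM in resistant cells with GNE-7883, against 179, 203 and 179 CPM with DMSO. Sensitive cells had 182, 178 and 183 CPM with GNE-7883, against 137, 146 and 133 CPM with DMSO. Only the sensitive DMSO libraries lay apart from the rest. Its change was 0.38 ± 0.064 on the log2 scale (adjusted p = 8.97e-05, edgeR) in sensitive cells and 0.05 ± 0.064 on the log2 scale (adjusted p = 0.735, edgeR) in resistant cells. MMP16 had 24.2, 24.3 and 24.3 CPM in resistant cells with GNE-7883, against 16.8, 14.7 and 18.5 CPM with DMSO. Sensitive cells had 38.5, 37.2 and 37.03 CPM with GNE-7883, against 14.7, 9.68 and 16.2 CPM with DMSO. Libraries with GNE-7883 were higher in both lines without overlap, by 1.48 ± 0.13 on the log2 scale (adjusted p = 1.04e-07, edgeR) in sensitive and 0.55 ± 0.13 on the log2 scale (adjusted p = 0.0147, edgeR) in resistant cells, and the resistant call was lost in 4 of the fits that each left out 1 library. MMP15 had 119, 105 and 118 CPM in resistant cells with GNE-7883, against 86.4, 103 and 86.7 CPM with DMSO. Sensitive cells had 182, 159 and 191 CPM with GNE-7883, against 208, 232 and 211 CPM with DMSO. It fell by a small margin in the sensitive line, -0.29 ± 0.083 on the log2 scale (adjusted p = 0.00692, edgeR), and rose in the resistant line, 0.31 ± 0.084 on the log2 scale (adjusted p = 0.0308, edgeR); the resistant call was lost in 4 such fits. Its level was lower in resistant cells in both conditions, -1.24 ± 0.084 on the log2 scale (adjusted p = 5.95e-09, edgeR) in DMSO and -0.64 ± 0.084 on the log2 scale (adjusted p = 6.09e-06, edgeR) in GNE-7883.

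MMP24 had 135, 121 and 128 CPM in resistant cells with GNE-7883, against 111, 119 and 107 CPM with DMSO. Sensitive cells had 153, 143 and 156 CPM with GNE-7883, against 232, 246 and 236 CPM with DMSO. The sensitive DMSO libraries were the highest and overlapped with no other group. MMP24 fell in sensitive cells, -0.66 ± 0.06 on the log2 scale (adjusted p = 1.37e-07, edgeR), and had a change of 0.19 ± 0.06 on the log2 scale (adjusted p = 0.0602, edgeR) in resistant cells, which was called without sensitive DMSO replicate 2 (adjusted p = 0.00965, edgeR). In DMSO it was lower in resistant cells, -1.09 ± 0.061 on the log2 scale (adjusted p = 5.19e-10, edgeR). Some of its exon sequence is shared with the opposite-strand gene MMP24OS, and the counting is not stated to use strand, so reads there cannot be assigned; MMP24OS had 7696 counts, against 75311 for MMP24. The lipid-anchored MMP17 had 3.74, 3.64 and 3.06 CPM in resistant cells with GNE-7883, against 2.82, 3.98 and 3.99 CPM with DMSO. Sensitive cells had 0.807, 0.574 and 1.19 CPM with GNE-7883, against 1.19, 1.38 and 1.204 CPM with DMSO. It differed between lines, 1.5 ± 0.19 on the log2 scale (adjusted p = 8.11e-06, edgeR) in DMSO and 2.00 ± 0.21 on the log2 scale (adjusted p = 4.88e-07, edgeR) in GNE-7883, and its change with the inhibitor was -0.54 ± 0.24 on the log2 scale (adjusted p = 0.0716, edgeR) in sensitive and -0.04 ± 0.17 on the log2 scale (adjusted p = 0.935, edgeR) in resistant cells. MMP25 had 1.15, 1.23 and 1.04 CPM in resistant cells with GNE-7883, against 1.08, 1.52 and 1.35 CPM with DMSO. Sensitive cells had 1.22, 1.54 and 1.41 CPM with GNE-7883, against 2.895, 3.35 and 3.504 CPM with DMSO. It fell in sensitive cells, -1.22 ± 0.15 on the log2 scale (adjusted p = 4.34e-06, edgeR), but its exons overlap the opposite-strand gene MMP25-AS1, which had 4110 counts against 850, so its values are uncertain.

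A cluster of 9 MMP genes lies on chromosome 11 (GRCh38 chr11:102520508-102955734) and holds collagenases, stromelysins and matrilysin. Of these 9 genes, 3 passed the filter and only MMP1, the interstitial collagenase, was expressed. MMP1 had 0.4597, 0.672 and 0.628 CPM in resistant cells with GNE-7883, against 0.573, 0.498 and 0.522 CPM with DMSO. Sensitive cells had 2.34, 2.63 and 2.28 CPM with GNE-7883, against 0.345, 0.452 and 0.246 CPM with DMSO. It rose in sensitive cells, 2.77 ± 0.21 on the log2 scale (adjusted p = 1.55e-08, edgeR), with no overlap, while its change in resistant cells was 0.13 ± 0.24 on the log2 scale (adjusted p = 0.824, edgeR) and the difference between lines was -2.64 ± 0.33 (adjusted p = 1.32e-05, edgeR). MMP10 and MMP3, the stromelysins, stayed under 1 CPM in every group. MMP10 was higher in resistant cells, 1.79 ± 0.44 on the log2 scale (adjusted p = 0.00302, edgeR) in DMSO and 0.90 ± 0.38 on the log2 scale (adjusted p = 0.0497, edgeR) in GNE-7883, on means of 0.713 ± 0.131 CPM in resistant cells with GNE-7883, 0.631 ± 0.0415 CPM with DMSO, 0.383 ± 0.126 CPM in sensitive cells with GNE-7883 and 0.176 ± 0.178 CPM with DMSO (SD, n = 3 each). The call in GNE-7883 was lost in 7 of 18 alternatives, with adjusted p up to 0.138 (edgeR). Without sensitive DMSO replicate 2 the difference in DMSO was 3.02 ± 0.46 (adjusted p = 1.51e-05, edgeR), and a rise with GNE-7883 in sensitive cells of 2.31 ± 0.52 was called (adjusted p = 0.000699, edgeR). MMP3 was called in DMSO only, 1.03 ± 0.4 on the log2 scale (adjusted p = 0.0457, edgeR), a call lost in 14 of 18 alternatives. Of the other MMP genes, MMP28 was lower in resistant cells in both conditions, -2.24 ± 0.22 on the log2 scale (adjusted p = 5.57e-07, edgeR) in DMSO and -1.95 ± 0.2 on the log2 scale (adjusted p = 4.36e-07, edgeR) in GNE-7883. MMP19 was called for 3 contrasts on 335 counts in all and shares exon sequence with TMEM198B, so it is not described further.

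**Figure D4:**
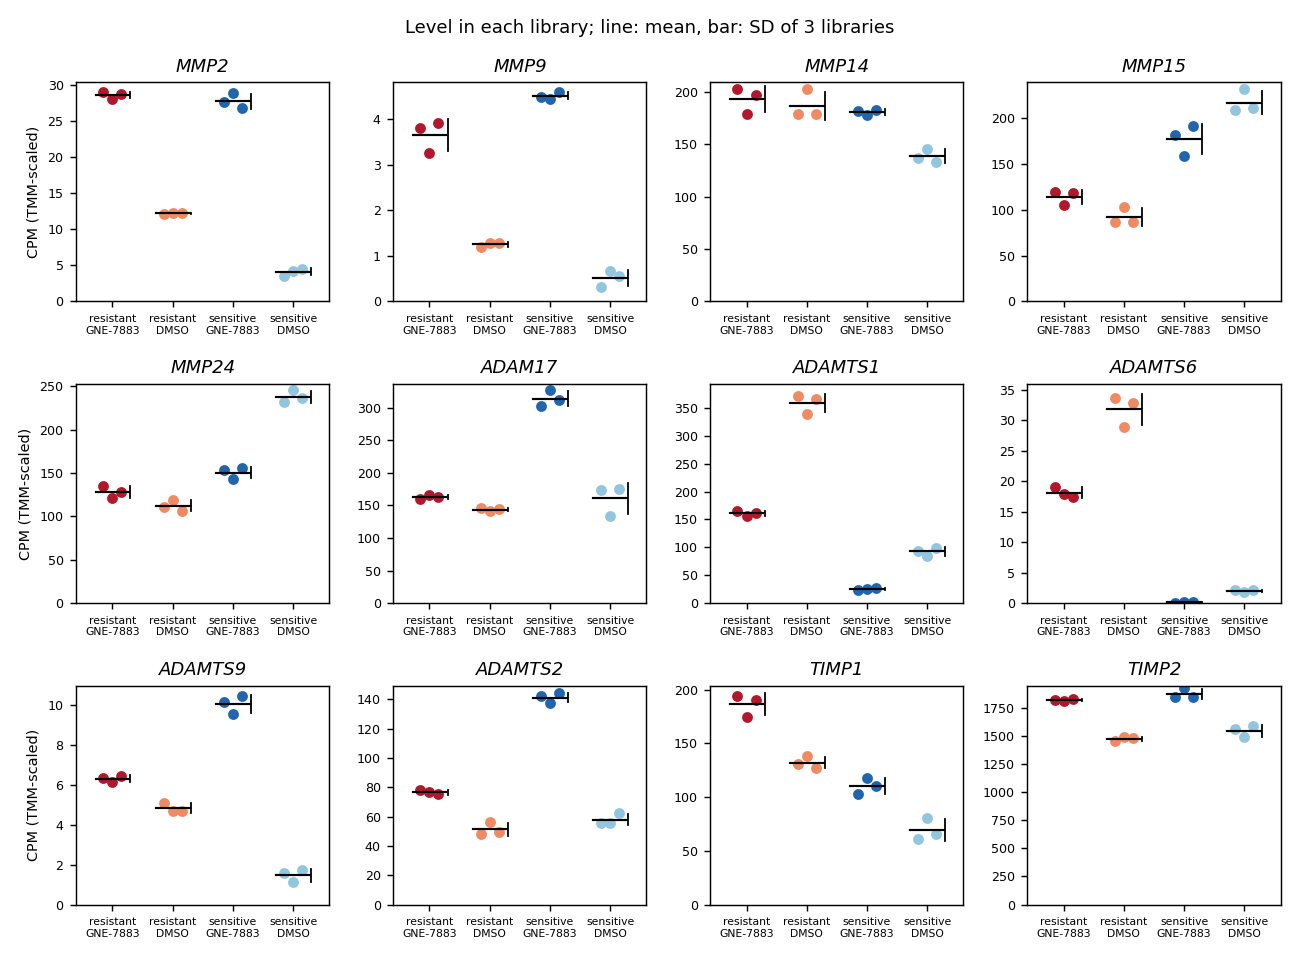
CPM in each of the 12 libraries for genes described in the text, with a short line at each group mean. MMP2 libraries with GNE-7883 sit at 26.7 to 28.9 CPM in both lines, and ADAMTS6 libraries of the sensitive line with GNE-7883 sit near the floor of 3 counts.

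Among the ADAM shedding enzymes, ADAM17, which releases TNF and several EGF-receptor ligands, responded in the sensitive line. ADAM17 (ENSG00000151694, GRCh38 chr2:9488486-9556732, minus strand) had 159.7, 166 and 163 CPM in resistant cells with GNE-7883, against 146, 141 and 144 CPM with DMSO. Sensitive cells had 304, 327 and 312 CPM with GNE-7883, against 174, 133 and 176 CPM with DMSO. Only the sensitive libraries with GNE-7883 stood above the rest. It rose, changing by 0.97 ± 0.081 on the log2 scale (adjusted p = 5.38e-08, edgeR) in sensitive cells, with a change of 0.18 ± 0.081 on the log2 scale (adjusted p = 0.2, edgeR) in resistant cells, where the call appeared without sensitive DMSO replicate 2 (adjusted p = 0.0034, edgeR). The response differed between lines by -0.78 ± 0.11 (adjusted p = 6.79e-05, edgeR). Its exons overlap the opposite-strand gene IAH1, which had 11875 counts against 91472. ADAM10, the main shedding enzyme of Notch and cadherins, had 575, 601 and 590.4 CPM in resistant cells with GNE-7883, against 582, 552 and 599 CPM with DMSO. Sensitive cells had 868, 866 and 844 CPM with GNE-7883, against 848, 652 and 877 CPM with DMSO. The sensitive DMSO replicate 2 was the lowest of the sensitive libraries. ADAM10 was lower in resistant cells in DMSO, -0.46 ± 0.082 on the log2 scale (adjusted p = 0.000246, edgeR), and in GNE-7883, -0.55 ± 0.082 on the log2 scale (adjusted p = 2.66e-05, edgeR), and its change with the inhibitor was 0.12 ± 0.082 on the log2 scale (adjusted p = 0.237, edgeR) in sensitive and 0.03 ± 0.082 on the log2 scale (adjusted p = 0.896, edgeR) in resistant cells.

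ADAM12, a protease of the cell surface that also exists in a secreted form, showed a different pattern. Its level was 22.1, 23.6 and 21.5 CPM in resistant cells with GNE-7883, against 21.98, 23.8 and 24.6 CPM with DMSO. Sensitive cells had 6.07, 7.34 and 6.23 CPM with GNE-7883, against 18.7, 14.4 and 18.1 CPM with DMSO. The sensitive libraries with GNE-7883 lay lowest and apart from the other groups. ADAM12 fell, changing by -1.38 ± 0.11 on the log2 scale (adjusted p = 1.86e-08, edgeR) in sensitive cells, with a change of -0.06 ± 0.095 on the log2 scale (adjusted p = 0.761, edgeR) in resistant cells. The difference of responses was 1.32 ± 0.14 (adjusted p = 3.21e-06, edgeR). ADAM9 rose in sensitive cells, 0.53 ± 0.063 on the log2 scale (adjusted p = 2.75e-06, edgeR), and was lower in resistant cells in GNE-7883, -0.53 ± 0.063 on the log2 scale (adjusted p = 2.04e-06, edgeR). ADAM19 was the only ADAM gene called in resistant cells with all 12 libraries, at 64.8 ± 1.65 CPM with GNE-7883, against 45.7 ± 1.04 CPM with DMSO (SD, n = 3 each), 0.50 ± 0.07 on the log2 scale (adjusted p = 0.000252, edgeR). ADAM22, a neuronal surface protein without protease activity, was low at 5.97 ± 0.808 CPM in sensitive cells with GNE-7883, against 3.28 ± 1.17 CPM with DMSO, and rose there by 0.86 ± 0.18 on the log2 scale (adjusted p = 0.000854, edgeR). ADAM15 had no called change with the inhibitor in either line; without sensitive DMSO replicate 2 it was called in resistant cells (adjusted p = 0.0256, edgeR). ADAM8 and ADAM33 were called in sensitive cells, ADAM8 higher by 0.47 and ADAM33 lower at -0.38 on the log2 scale. The ADAM8 call was lost in 5 of 18 alternatives, with adjusted p up to 0.13 (edgeR and DESeq2). ADAM32 was called between lines in DMSO only, on group means under 1 CPM. ADAM11, a surface protein without protease activity, was called in none of the 5 comparisons.

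Of the ADAMTS genes, ADAMTS1 and ADAMTS6 fell with GNE-7883 in both lines and were higher in resistant cells throughout. ADAMTS1 (ENSG00000154734, GRCh38 chr21:26835747-26845409, minus strand), which cleaves the proteoglycans versican and aggrecan, had 166, 157 and 161 CPM in resistant cells with GNE-7883, against 371, 339.8 and 366 CPM with DMSO. Sensitive cells had 23.3, 25.1 and 27.2 CPM with GNE-7883, against 94.02, 83.98 and 99.6 CPM with DMSO. The groups kept apart, with resistant DMSO libraries highest and sensitive libraries with GNE-7883 lowest. The change was -1.87 ± 0.074 on the log2 scale (adjusted p = 8.81e-12, edgeR) in sensitive cells and -1.16 ± 0.069 on the log2 scale (adjusted p = 7.21e-08, edgeR) in resistant cells. Resistant cells were higher by 1.96 ± 0.071 on the log2 scale (adjusted p = 2.95e-12, edgeR) in DMSO and 2.67 ± 0.075 on the log2 scale (adjusted p = 7.73e-14, edgeR) in GNE-7883, so that with the inhibitor they still exceeded sensitive cells in DMSO. ADAMTS5, the major aggrecanase, lies 72.5 kb from ADAMTS1 on chromosome 21. ADAMTS5 had 25.1, 23.9 and 24.1 CPM in resistant cells with GNE-7883, against 28.4, 27.5 and 31.1 CPM with DMSO. Sensitive cells had 11.96, 10.3 and 10.1 CPM with GNE-7883, against 8.80, 6.97 and 10.9 CPM with DMSO. All resistant libraries were above all sensitive ones, with differences of 1.71 ± 0.12 on the log2 scale (adjusted p = 6.45e-09, edgeR) in DMSO and 1.18 ± 0.12 on the log2 scale (adjusted p = 2.58e-07, edgeR) in GNE-7883. Its change with the inhibitor was 0.28 ± 0.12 on the log2 scale (adjusted p = 0.0605, edgeR) in sensitive and -0.25 ± 0.11 on the log2 scale (adjusted p = 0.187, edgeR) in resistant cells.

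ADAMTS6 (ENSG00000049192, GRCh38 chr5:65148736-65481920, minus strand), an enzyme of the fibrillin microfibril, had 19.1, 17.9 and 17.3 CPM in resistant cells with GNE-7883, against 33.5, 28.9 and 32.7 CPM with DMSO. Sensitive cells had 0.0556, 0.121 and 0.239 CPM with GNE-7883, against 2.07, 1.83 and 2.16 CPM with DMSO. The sensitive libraries with GNE-7883 held 15 counts in all, against 246 with DMSO, and the resistant libraries lay far above both. It fell, changing by -3.81 ± 0.26 on the log2 scale (adjusted p = 5.28e-09, edgeR) in sensitive cells and by -0.81 ± 0.092 on the log2 scale (adjusted p = 3.95e-05, edgeR) in resistant cells. The difference between the lines was 3.97 ± 0.12 on the log2 scale (adjusted p = 2.33e-13, edgeR) in DMSO and 6.98 ± 0.19 on the log2 scale (adjusted p = 5.2e-14, edgeR) in GNE-7883, the widest of the 42 genes in both. The fold in GNE-7883 rests on the few counts of the sensitive libraries.

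TEAD factors recognise the letters CATTCC, and the AP-1 family, known to act beside TEAD at many enhancers, TGANTCA. Both were searched on both strands in promoter windows from RefSeq (GRCh38.p14, 250 bases before to 50 after the RefSeq start), in which 36 of the 63 genes matched by symbol. RefSeq starts can differ from the ends of the gene ranges given in the text, which come from another annotation (GENCODE). CATTCC was in 5 of the 36 windows (13.9%), against 4928 of the 35116 windows of all genes, close to the same share. TGANTCA was in 4 (11.1%), against 7.71%. The 5 were ADAMTS6, ADAMTS12, ADAM17, ADAMTS13 and ADAMTS20, of which 2 fell in sensitive cells, 2 rose and ADAMTS20 was not tested. TGANTCA was in the windows of ADAMTS12, MMP7, MMP10 and MMP20. Genes without a matched window, among them MMP1, MMP2, MMP9, ADAMTS1, ADAMTS9 and TIMP2, were not searched. The windows of 3 genes that moved in different directions in sensitive cells and hold CATTCC, and that of TIMP1, which holds neither, are shown 5′ to 3′ on the gene's strand, with matched letters in capitals. In the ADAMTS6 window (GRCh38.p14 chr5:65481871-65482170, minus strand) the match starts at position -200 from the RefSeq start, on the opposite strand. In that of ADAMTS12 (chr5:33891941-33892240, minus strand) CATTCC starts at -119 and TGANTCA at -84, without overlap. In that of ADAM17 (chr2:9555781-9556080, minus strand) CATTCC starts at -227, and this window lies wholly inside the gene range given above. The TIMP1 window is chrX:47582186-47582485, plus strand, and its RefSeq start lies inside the gene range given below. A match is a description of the letters only.
ADAMTS6: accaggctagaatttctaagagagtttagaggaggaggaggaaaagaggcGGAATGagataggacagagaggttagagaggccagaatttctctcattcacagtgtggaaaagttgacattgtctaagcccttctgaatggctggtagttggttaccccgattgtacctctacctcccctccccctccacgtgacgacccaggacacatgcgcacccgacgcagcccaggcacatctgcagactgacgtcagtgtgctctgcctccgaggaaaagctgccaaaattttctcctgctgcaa
ADAMTS12: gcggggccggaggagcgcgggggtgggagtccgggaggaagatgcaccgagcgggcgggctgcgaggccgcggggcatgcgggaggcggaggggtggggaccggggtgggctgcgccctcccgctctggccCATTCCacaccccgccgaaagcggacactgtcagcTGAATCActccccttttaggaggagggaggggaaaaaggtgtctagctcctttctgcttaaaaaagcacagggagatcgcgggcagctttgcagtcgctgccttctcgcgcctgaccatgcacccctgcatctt
ADAM17: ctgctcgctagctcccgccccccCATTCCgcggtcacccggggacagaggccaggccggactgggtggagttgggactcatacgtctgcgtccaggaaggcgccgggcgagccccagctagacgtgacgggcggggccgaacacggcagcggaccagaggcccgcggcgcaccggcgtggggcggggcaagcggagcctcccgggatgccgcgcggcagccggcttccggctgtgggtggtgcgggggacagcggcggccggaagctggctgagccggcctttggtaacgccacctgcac
TIMP1: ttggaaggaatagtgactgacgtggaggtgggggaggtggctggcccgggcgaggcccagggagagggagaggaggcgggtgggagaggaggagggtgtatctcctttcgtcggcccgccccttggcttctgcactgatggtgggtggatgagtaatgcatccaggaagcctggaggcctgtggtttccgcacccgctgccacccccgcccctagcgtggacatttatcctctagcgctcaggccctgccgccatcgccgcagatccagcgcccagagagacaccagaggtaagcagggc

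ADAMTS12 and ADAMTS15 fell in the sensitive line. ADAMTS12, which cleaves cartilage oligomeric matrix protein and whose promoter holds both sets of letters, had 96.6, 101 and 98.97 CPM in resistant cells with GNE-7883, against 109.8, 106 and 113 CPM with DMSO. Sensitive cells had 51.2, 46.4 and 45.8 CPM with GNE-7883, against 147, 112 and 152 CPM with DMSO. Sensitive libraries with GNE-7883 were the lowest, and sensitive DMSO replicates 1 and 3 the highest. The change was -1.52 ± 0.092 on the log2 scale (adjusted p = 1.08e-09, edgeR) in sensitive and -0.15 ± 0.089 on the log2 scale (adjusted p = 0.373, edgeR) in resistant cells, with a difference between lines of 1.37 ± 0.13 (adjusted p = 6.37e-07, edgeR). ADAMTS15, which cleaves versican and aggrecan, had 45.1, 42.6 and 42.8 CPM in resistant cells with GNE-7883, against 36.5, 41.4 and 37.8 CPM with DMSO. Sensitive cells had 26.3, 25.8 and 25.5 CPM with GNE-7883, against 53.99, 57.6 and 56.3 CPM with DMSO. It fell, changing by -1.11 ± 0.062 on the log2 scale (adjusted p = 3.97e-10, edgeR) in sensitive cells, against a change of 0.17 ± 0.06 on the log2 scale (adjusted p = 0.0883, edgeR) in resistant cells, which was called without sensitive DMSO replicate 2 (adjusted p = 0.025, edgeR). The difference of responses was 1.29 ± 0.086 (adjusted p = 2.31e-08, edgeR). ADAMTS8, its neighbour on chromosome 11, stayed under 1 CPM; it fell in sensitive cells, -0.81 ± 0.31 on the log2 scale (adjusted p = 0.0343, edgeR), a call lost in 6 of 18 alternatives with adjusted p up to 0.143 (edgeR and DESeq2), and was lower in resistant cells, -1.76 ± 0.34 on the log2 scale (adjusted p = 0.000479, edgeR) in DMSO and -1.40 ± 0.41 on the log2 scale (adjusted p = 0.00722, edgeR) in GNE-7883.

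The ADAMTS genes that rose with GNE-7883 in sensitive cells were ADAMTS2, ADAMTS9, ADAMTS10, ADAMTS13 and ADAMTS17. ADAMTS9, an enzyme that cleaves versican, had 6.37, 6.14 and 6.44 CPM in resistant cells with GNE-7883, against 5.11, 4.68 and 4.69 CPM with DMSO. Sensitive cells had 10.2, 9.55 and 10.5 CPM with GNE-7883, against 1.56, 1.12 and 1.75 CPM with DMSO. It was highest in sensitive cells with GNE-7883 and lowest in sensitive cells with DMSO, with both resistant groups between them. The rise was 2.77 ± 0.12 on the log2 scale (adjusted p = 3.45e-11, edgeR) in sensitive cells and 0.39 ± 0.11 on the log2 scale (adjusted p = 0.0338, edgeR) in resistant cells, and the resistant call was lost in each of the 6 fits that left out 1 resistant library. The difference of responses was -2.39 ± 0.17 (adjusted p = 3.18e-08, edgeR). ADAMTS2, the procollagen I N-proteinase, had 78.5, 76.6 and 75.2 CPM in resistant cells with GNE-7883, against 48.3, 56.6 and 49.6 CPM with DMSO. Sensitive cells had 142, 138 and 144 CPM with GNE-7883, against 55.8, 55.9 and 62.2 CPM with DMSO. GNE-7883 libraries were higher in both lines without overlap, 1.28 ± 0.066 on the log2 scale (adjusted p = 1.8e-10, edgeR) in sensitive and 0.58 ± 0.066 on the log2 scale (adjusted p = 4.53e-05, edgeR) in resistant cells. ADAMTS3, a related procollagen-trimming enzyme, had 134, 136 and 127 CPM in resistant cells with GNE-7883, against 109, 107 and 115 CPM with DMSO, and 204, 182 and 187 CPM in sensitive cells with GNE-7883, against 221, 162 and 218 CPM with DMSO. It was lower in resistant cells, -0.86 ± 0.093 on the log2 scale (adjusted p = 1.31e-06, edgeR) in DMSO and -0.53 ± 0.092 on the log2 scale (adjusted p = 0.000112, edgeR) in GNE-7883, and its lowest library in sensitive cells with DMSO was replicate 2. Without that library ADAMTS3 was called with GNE-7883, lower in sensitive cells (adjusted p = 0.00293, edgeR) and higher in resistant cells (adjusted p = 0.000761, edgeR).

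ADAMTS10, a fibrillin-binding enzyme, had 10.03, 7.296 and 8.35 CPM in resistant cells with GNE-7883, against 7.17, 7.34 and 6.29 CPM with DMSO. Sensitive cells had 19.1, 16.9 and 19.2 CPM with GNE-7883, against 7.86, 7.95 and 8.68 CPM with DMSO. Its sensitive libraries with GNE-7883 were the highest. ADAMTS17, a related enzyme of the microfibril, had 8.69, 7.67 and 8.08 CPM in resistant cells with GNE-7883, against 6.095, 6.71 and 7.12 CPM with DMSO. Sensitive cells had 29.3, 24.6 and 28.1 CPM with GNE-7883, against 13.1, 12.3 and 14.2 CPM with DMSO. Sensitive libraries with GNE-7883 again ranked first, and both resistant groups last. ADAMTS10 rose, changing by 1.18 ± 0.11 on the log2 scale (adjusted p = 1.17e-07, edgeR) in sensitive cells, with a change of 0.30 ± 0.11 on the log2 scale (adjusted p = 0.11, edgeR) in resistant cells. ADAMTS17 rose, changing by 1.05 ± 0.086 on the log2 scale (adjusted p = 3.75e-08, edgeR) in sensitive cells, with a change of 0.30 ± 0.096 on the log2 scale (adjusted p = 0.065, edgeR) in resistant cells that was called without sensitive DMSO replicate 2 (adjusted p = 0.0245, edgeR). ADAMTS13, which cleaves von Willebrand factor, was at 1.94 ± 0.1403 CPM in sensitive cells with GNE-7883, against 0.9198 ± 0.263 CPM with DMSO (SD, n = 3 each), and rose, changing by 1.06 ± 0.21 on the log2 scale (adjusted p = 0.000506, edgeR). The widest lower level in resistant cells was that of ADAMTS16, with 0.251 ± 0.0853 CPM in resistant cells with GNE-7883, against 3.62 ± 0.393 CPM in sensitive cells with GNE-7883, and 0.328 ± 0.0835 CPM in resistant cells with DMSO, against 3.58 ± 0.203 CPM in sensitive cells with DMSO. The differences were -3.79 ± 0.2 on the log2 scale (adjusted p = 1.57e-10, edgeR) in GNE-7883 and -3.41 ± 0.19 on the log2 scale (adjusted p = 6.65e-10, edgeR) in DMSO. ADAMTS14 was higher in resistant cells, by 0.66 in DMSO and 0.73 in GNE-7883 on the log2 scale, and ADAMTS7, which has near-identical copies in the genome, was lower in DMSO by a small margin, -0.32 ± 0.12 on the log2 scale (adjusted p = 0.0332, edgeR), a call lost in 5 of 19 alternatives.

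Several genes that responded in the sensitive line stood apart between the lines with the inhibitor. The sensitive response and this line difference share the sensitive libraries with GNE-7883. A lower level for genes that rose, or a higher one for genes that fell, is therefore partly built in. Of all genes tested, 31.1% were lower and 30.7% higher in resistant cells in GNE-7883. The like shares among all genes that rose, or fell, in sensitive cells were not computed. The counts below therefore do not set these genes apart from other genes that responded. Of the 17 genes that rose in the sensitive line, 12 were lower in resistant than in sensitive cells in GNE-7883, 1 was higher (TIMP1) and 4 were not called (MMP2, MMP9, MMP14 and TIMP2). Lower were, for example, ADAMTS17 at -1.75 ± 0.089 on the log2 scale (adjusted p = 8.67e-11, edgeR), ADAMTS10 at -1.10 ± 0.11 on the log2 scale (adjusted p = 1.62e-07, edgeR), and ADAM17 at -0.95 ± 0.081 on the log2 scale (adjusted p = 4.64e-08, edgeR). MMP1 differed by -2.05 ± 0.19 on the log2 scale (adjusted p = 1.2e-07, edgeR), ADAMTS2 by -0.88 ± 0.066 on the log2 scale (adjusted p = 8.41e-09, edgeR) and ADAMTS9 by -0.67 ± 0.1 on the log2 scale (adjusted p = 2.81e-05, edgeR). MMP16 was also lower there, -0.63 ± 0.13 on the log2 scale (adjusted p = 0.000424, edgeR). Of the 10 genes that fell in the sensitive line, 6 were higher in resistant cells in GNE-7883 (ADAMTS1, ADAMTS6, ADAM12, ADAM33, ADAMTS12 and ADAMTS15), 3 were lower and MMP25 was not called. The higher level was by 1.78 ± 0.11 on the log2 scale (adjusted p = 5.23e-10, edgeR) for ADAM12, 1.05 ± 0.091 on the log2 scale (adjusted p = 5.28e-08, edgeR) for ADAMTS12 and 0.75 ± 0.062 on the log2 scale (adjusted p = 2.77e-08, edgeR) for ADAMTS15. The 3 lower ones were MMP15, ADAMTS8 and MMP24, the last at -0.23 ± 0.06 on the log2 scale (adjusted p = 0.00313, edgeR). In DMSO ADAM12 was also higher in resistant cells, 0.46 ± 0.096 on the log2 scale (adjusted p = 0.000891, edgeR), whereas ADAMTS12 was lower, -0.32 ± 0.089 on the log2 scale (adjusted p = 0.00645, edgeR), as was ADAMTS15, -0.54 ± 0.06 on the log2 scale (adjusted p = 1.87e-06, edgeR). ADAMTS9 was higher in resistant cells in DMSO, 1.72 ± 0.13 on the log2 scale (adjusted p = 2.03e-08, edgeR), and lower in GNE-7883. The gelatinase MMP9 differed between lines in GNE-7883 by -0.30 ± 0.13 on the log2 scale (adjusted p = 0.0524, edgeR). Without sensitive DMSO replicate 2 its adjusted p was 0.03 (edgeR).

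**Figure D5:**
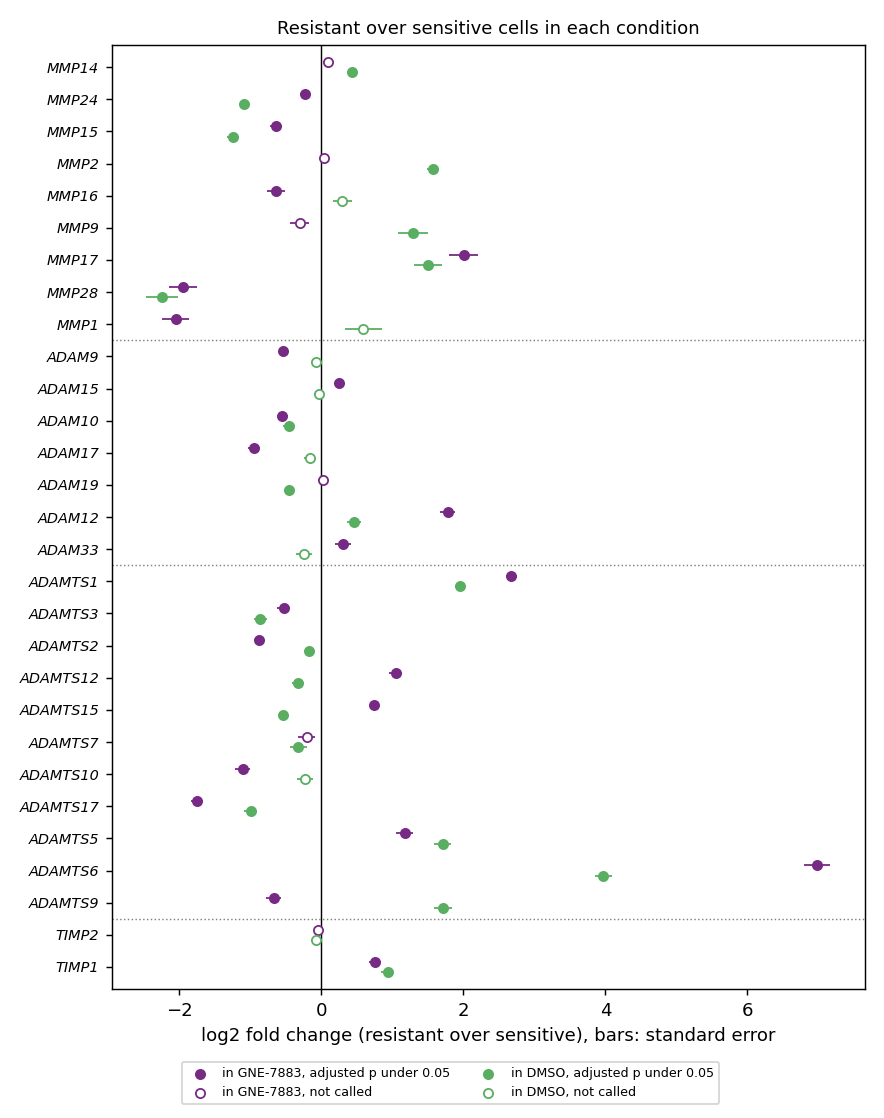
Log2 fold change of resistant over sensitive cells in GNE-7883 and in DMSO for each expressed gene, with bars of 1 standard error; filled points have an adjusted p under 0.05. ADAMTS6 lies farthest to the right, and MMP2 and MMP9 differ between lines in DMSO while their points in GNE-7883 lie nearer to 0.

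All 3 TIMP genes rose with GNE-7883 in sensitive cells. TIMP1 (ENSG00000102265, GRCh38 chrX:47582313-47586789, plus strand), an inhibitor of most secreted MMPs, had 194, 175 and 191 CPM in resistant cells with GNE-7883, against 131, 138 and 127 CPM with DMSO. Sensitive cells had 103, 118 and 110.1 CPM with GNE-7883, against 61.4, 80.7 and 65.3 CPM with DMSO. No 2 of the groups overlapped, with resistant cells above sensitive cells in each condition. It rose, changing by 0.67 ± 0.088 on the log2 scale (adjusted p = 7.41e-06, edgeR) in sensitive and 0.50 ± 0.087 on the log2 scale (adjusted p = 0.00175, edgeR) in resistant cells. Between lines it differed by 0.94 ± 0.088 on the log2 scale (adjusted p = 2.65e-07, edgeR) in DMSO and 0.76 ± 0.087 on the log2 scale (adjusted p = 1.4e-06, edgeR) in GNE-7883. The difference of responses was -0.18 ± 0.12 (adjusted p = 0.284, edgeR); without sensitive DMSO replicate 2 it was -0.30 ± 0.081 (adjusted p = 0.00604, edgeR). TIMP2, the partner of MMP14 in MMP2 activation, had 1819, 1809 and 1828 CPM in resistant cells with GNE-7883, against 1449.8, 1491 and 1475 CPM with DMSO. Sensitive cells had 1845, 1922 and 1844 CPM with GNE-7883, against 1559.7, 1485 and 1585 CPM with DMSO. In both lines GNE-7883 libraries lay above DMSO libraries, by 0.28 ± 0.043 on the log2 scale (adjusted p = 4.38e-05, edgeR) in sensitive and 0.31 ± 0.043 on the log2 scale (adjusted p = 0.000271, edgeR) in resistant cells. The difference between lines was -0.07 ± 0.043 on the log2 scale (adjusted p = 0.207, edgeR) in DMSO and -0.04 ± 0.043 on the log2 scale (adjusted p = 0.436, edgeR) in GNE-7883. The rare TIMP4 had 0.794, 0.695 and 0.601 CPM in resistant cells with GNE-7883, against 0.7103, 0.6496 and 0.522 CPM with DMSO. Sensitive cells had 1.31, 1.39 and 1.38 CPM with GNE-7883, against 0.551, 0.809 and 0.849 CPM with DMSO. TIMP4 rose, changing by 0.89 ± 0.2 on the log2 scale (adjusted p = 0.00119, edgeR) in sensitive cells, with a change of 0.15 ± 0.22 on the log2 scale (adjusted p = 0.771, edgeR) in resistant cells.

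Other genes that control these proteases were followed as a list of 29 regulators, of which 26 were tested: activating convertases, tetraspanins that carry ADAM10, the plasminogen system and further inhibitors. In sensitive cells 13 rose and 8 fell with GNE-7883, against 58.1% of all genes called, and in resistant cells 3 rose and 2 fell, against 9.22%. Between lines 11 were higher and 11 lower in resistant cells in DMSO, against 48.7% of all genes called, and 11 higher and 9 lower in GNE-7883, against 61.9%. RECK, a membrane-anchored inhibitor of MMP2, MMP9 and MMP14, had 159 ± 1.24 CPM in sensitive cells with GNE-7883, against 77.3 ± 9.71 CPM with DMSO (SD, n = 3 each), a rise of 1.04 ± 0.077 on the log2 scale (adjusted p = 1.07e-08, edgeR). PLAT, the tissue plasminogen activator, fell in both lines, -1.21 ± 0.074 on the log2 scale (adjusted p = 1.28e-09, edgeR) in sensitive and -0.64 ± 0.071 on the log2 scale (adjusted p = 3.47e-05, edgeR) in resistant cells. TSPAN5, a tetraspanin that guides ADAM10, was higher in resistant cells, 2.02 ± 0.065 on the log2 scale (adjusted p = 7.08e-13, edgeR) in DMSO and 1.59 ± 0.065 on the log2 scale (adjusted p = 5.51e-12, edgeR) in GNE-7883. LCN2, which stabilises MMP9, was at 73.8 ± 5.77 CPM in sensitive cells with GNE-7883, against 24.4 ± 4.32 CPM with DMSO, a rise of 1.59 ± 0.13 on the log2 scale (adjusted p = 3.55e-08, edgeR), and averaged 1.02 ± 0.241 and 0.848 ± 0.35 CPM in resistant cells with GNE-7883 and with DMSO (SD, n = 3 each).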

How the data were processed

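RNA was sequenced from 12 libraries, 3 in each of 4 groups. The authors deposited raw counts per gene and RPKM values; reads were aligned with GSNAP 2013-10-10 to GRCh38.p10, per the submitters' processing notes, and the use of strand in counting is not given in the sources used here. The count matrix was tested as deposited with edgeR 4.0.16 (R 4.3.3): TMM scaling, filterByExpr, 1 mean per group over all 12 libraries, glmQLFit and glmQLFTest, two-sided, with Benjamini-Hochberg adjustment over 18035 genes and 8 residual degrees of freedom. A gene was called at an adjusted p under 0.05. CPM values are TMM-scaled. RPKM values were used as the authors deposited them, for levels only. The detection floor was 3 counts per library and covers counting error only. The script was tested on simulated data. DESeq2 1.42.0 was an alternative, as were library totals, other filters, a replicate block, fits to the groups compared and leaving out each library.

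Symbols came from GENCODE through Ensembl identifiers. The 63 genes and the related lists were chosen with earlier results of these data known. Given in full are tested genes with a group mean of 10 CPM and a called change of at least 1 on the log2 scale, and, from 1 CPM, the TIMP genes, gelatinases, membrane-type MMPs, chromosome 11 cluster and ADAM10 and ADAM17. Promoter windows are from RefSeq.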

Additional observations from a re-analysis of the deposited data

Results flagged for a closer look

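In 19 of the genes given in full, the test of the difference between the GNE-7883 responses (resistant minus sensitive, log2, edgeR quasi-likelihood test, Benjamini-Hochberg adjusted p under 0.05) passed, and each is listed for that reason. A large difference of this kind was itself 1 way for a gene to be given in full, so their number is partly fixed in advance. Of the 42 genes tested, 25 passed (59.5%), against 35.7% of all genes. The difference also contains the sensitive response, so a sign opposite to that response is partly built in. No explanation was tested. Among genes that rose in sensitive cells, the difference was negative in MMP1 (-2.64), ADAMTS9 (-2.39), MMP9 (-1.60), MMP2 (-1.53), MMP16 (-0.93), ADAMTS10 (-0.87), ADAM17 (-0.78), ADAMTS17 (-0.75), ADAMTS2 (-0.71) and MMP14 (-0.34). ADAMTS5, with no called change in either line, had a difference of -0.53, which was no longer called in 4 of the alternatives. Among genes that fell in sensitive cells, the difference was positive in ADAMTS6 (3.01), ADAMTS12 (1.37), ADAM12 (1.32), ADAMTS15 (1.29), MMP25 (1.02), MMP24 (0.85) and ADAMTS1 (0.72). ADAMTS15 and MMP24 had positive changes in resistant cells, called without sensitive DMSO replicate 2. For MMP15, which fell in sensitive and rose in resistant cells, the difference was 0.60. With GNE-7883 the sensitive libraries of ADAMTS6 held 15 counts in all, which limits the precision of that value.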

How the results depend on the processing

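Over 19 alternatives, 125 called results for single genes gave 2309 recomputed values, of which 2207 kept their call and direction, 102 were no longer called and 0 reversed. In all, 107 of the 125 kept the call in every alternative. Leaving out each library in turn moved the counts of genes that rose with GNE-7883 to 16 to 19 in sensitive and 6 to 15 in resistant cells, and of genes that fell to 9 to 12 in sensitive and 2 to 5 in resistant cells. The highest resistant counts, 15 and 5, came without sensitive DMSO replicate 2. Between lines the same fits gave 14 to 15 genes higher and 13 to 17 lower in DMSO, 10 to 12 higher and 18 to 20 lower in GNE-7883, and for the difference of responses 10 to 12 positive and 11 to 16 negative. The number expressed was 29 to 30. With a filter of 5 CPM, which left 24 genes tested, 8 were higher in resistant cells in DMSO and 11 lower in GNE-7883; with a threshold of 5 RPKM, 16 genes were expressed. Values that reversed were not called: on leaving out libraries, ADAM10 ranged over -0.0086 to 0.19 in sensitive cells, -0.0044 to 0.065 in resistant cells and -0.16 to 0.039 in the difference of responses, and MMP17 over -0.18 to 0.054 in resistant cells. The others were TIMP2 between lines, with library totals (0.0055 in DMSO and 0.037 in GNE-7883) and with no filter (0.0032 in GNE-7883). The cause was not tested. DESeq2 called 17 higher and 9 lower in sensitive and 12 higher and 2 lower in resistant cells.

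Correlations of deviations from the group means were -0.119 to 0.18 for libraries with the same replicate number, against -0.159 to 0.109 for different numbers. The highest was between replicates 2 of the sensitive and resistant DMSO groups. With 3 libraries per group, these values cannot decide whether the numbers mark a shared culture or day. With a replicate block, 18 genes rose and 10 fell in sensitive cells, and 8 rose and 3 fell in resistant cells. Genes under 1 CPM (MMP3, MMP10, ADAMTS8, ADAM32) rest on few counts.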

Other observations

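Of 18 genes of related metalloproteases and ADAMTS-like matrix proteins, 13 were tested. With GNE-7883, 5 rose and 5 fell in sensitive cells, against 58.1% of all genes called, and 2 rose and 0 fell in resistant cells, against 9.22% of all genes (edgeR, adjusted p under 0.05). Between lines, 4 were higher and 7 lower in resistant cells in DMSO, against 48.7% of all genes called, and 4 higher and 6 lower in GNE-7883, against 61.9%. BMP1, the procollagen C-proteinase, had 204 ± 12.9 CPM in resistant cells with GNE-7883, against 148 ± 13.7 CPM with DMSO, and 466 ± 13.4 CPM in sensitive cells with GNE-7883, against 239 ± 9.82 CPM with DMSO (SD, n = 3 each). It rose by 0.96 ± 0.068 on the log2 scale (adjusted p = 6.36e-09, edgeR) in sensitive and 0.46 ± 0.068 on the log2 scale (adjusted p = 0.000392, edgeR) in resistant cells. ADAMTSL4, a fibrillin-binding protein without protease activity, fell in sensitive cells to 48.2 ± 3.98 CPM with GNE-7883, against 103 ± 7.62 CPM with DMSO, -1.10 ± 0.084 on the log2 scale (adjusted p = 1.69e-08, edgeR). In resistant cells its level was 21.3 ± 1.34 CPM with GNE-7883 and 18.5 ± 1.99 CPM with DMSO (SD, n = 3 each).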
